A study of Homo sapiens with 2 samples.

Results

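The cells described here are the IL11-rich cells of HT1080 spheroids that invaded collagen for 72 h with a β1 integrin-blocking antibody. HT1080 is an established human fibrosarcoma line. The study held 2 single-cell RNA libraries, 1 without antibody (control) and 1 with the blocking antibody 4B4 at 2 µg/ml, each from 50 spheroids seeded at 2000 cells in 500 µl of collagen. Both groups were the same line in the same kind of gel, so the antibody was the only labelled difference, and spheroids were pooled into 1 library per group. Of the 1759 barcodes of the 4B4 library, 1385 had at least 1000 detected genes and at most 20% of their UMIs from mitochondrially encoded (MT-) genes. The 138 with the highest share of IL11 among their UMIs (the top 10%) were taken as IL11-rich, out of 4787 such cells in both libraries.

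IL11 is a secreted cytokine of the IL6 family. It binds IL11RA, which pairs with the shared receptor IL6ST (gp130) and signals through JAK kinases, STAT3 and ERK. In fibroblasts and mesenchymal tumour cells IL11 is a known target of TGF-beta, whose ligands are released from latent complexes, bind a receptor serine/threonine kinase pair and act through SMAD factors on genes such as SMAD7, SKIL and PMEPA1. AP-1 factors, dimers of FOS and JUN family proteins, are the other well-known activators of the IL11 promoter.

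IL11 (ENSG00000095752) lies on the minus strand of chromosome 19 (GRCh38, 55364389 to 55370463). The 250 bases before its start are shown because IL11 chose the cells, and those before 1 of the starts of PMEPA1 because PMEPA1 was the TGF-beta response gene with the highest ratio in these cells. The table holds 1 window for IL11 and 4 for PMEPA1, and the PMEPA1 window shown is the only 1 of its 4 with a match to any motif searched. Both are RefSeq promoter sequences (GRCh38.p14), on the minus strand, at chr19:55370464-55370713 and chr20:57710578-57710827.
IL11: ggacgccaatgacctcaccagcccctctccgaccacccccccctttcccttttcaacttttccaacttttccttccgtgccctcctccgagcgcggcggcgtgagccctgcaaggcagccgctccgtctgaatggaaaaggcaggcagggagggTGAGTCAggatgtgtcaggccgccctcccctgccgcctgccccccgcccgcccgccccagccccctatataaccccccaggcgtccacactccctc
PMEPA1: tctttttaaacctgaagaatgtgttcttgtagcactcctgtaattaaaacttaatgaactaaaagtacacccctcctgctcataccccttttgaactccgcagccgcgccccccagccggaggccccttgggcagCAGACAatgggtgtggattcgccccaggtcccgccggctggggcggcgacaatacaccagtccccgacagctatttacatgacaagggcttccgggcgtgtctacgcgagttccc
Capitals mark TGAGTCA, the AP-1 motif, in the IL11 window and CAGACA, a SMAD-like motif, in the PMEPA1 window. Both strands were searched for these and for the TEAD motif GGAATG, and the marked matches do not overlap another motif. The AP-1 match begins 96 bases before the IL11 start. TGAGTCA was found in 4.20%, CAGACA in 13.6% and GGAATG in 11.9% of 35116 promoter windows of the same length. Among 62 windows of the measured TGF-beta response genes CAGACA was in 6 (9.68%), a lower share than over all windows. A match describes the letters only.

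No cell is a replicate here: with 1 library per group there is no test, and every interval below (95%) covers counting error in UMIs or cells only. Levels are UMIs per 1000000 UMIs (UPM), summed over a set of cells and divided by the set's UMIs without IL11. Each IL11-rich cell was set against 3 other 4B4 cells of nearest depth, 414 in all. A gene is called higher or lower where the IL11-rich cells differed from these matched cells at least 1.5-fold with the interval on that side of 1. IL11-rich and matched cells had median totals of 73522 and 73576.5 UMIs and median counts of 8580 and 8575 detected genes. Their median MT- shares were 6.81% and 8.07%. The kept 4B4 cells held 116451080 UMIs and the 3402 kept control cells 127218114, with median totals of 68556 and 32914 UMIs. The libraries shared 2 barcodes, none of them in an IL11-rich cell. A doublet caller marked 4 of the 1385 cells and none of the 138, too few marks to tell whether IL11-rich cells held doublets.

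The cells expressed general mesenchymal genes, and no marker particular to the line was looked at. In the IL11-rich cells VIM was at 2363 UPM, FN1 at 893, SPARC at 431, CD44 at 207 and CDH2 at 52.1. Of 8 epithelial markers 1 reached 5 UPM, of 8 immune markers 1, and of 6 endothelial or pericyte markers 2. The epithelial genes CDH1, KRT5 and KRT14 had no UMI in the 138 cells. Summed marker levels in IL11-rich and matched cells were 19.3 and 17.2 UPM for the epithelial list, 56.0 and 41.9 for the immune list, mostly CD68, and 113 and 104 for the endothelial list, mostly MCAM and PECAM1. No marker of these lists was called in this comparison. CD68 was called higher with G1 cells alone (log2 ratio 0.66) and with the top 5% of cells (0.76), CLDN4 with thinned cells (0.63), and MCAM with a stricter cell filter (0.60). By the same rule CLDN4 (−0.67) and PECAM1 (−0.85) were called lower in the control library. Their part in the results was not tested.

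IL11 was unevenly spread, and its values are a description, since they chose the cells. The 138 cells held 72.5% of the library's 3779 IL11 UMIs, while 739 of the 1385 cells had none. Within the 138 the lowest, median and highest IL11 levels were 65.2, 123 and 2729 UPM, and the median cell had 10.5 IL11 UMIs. A single cell with 351 UMIs held 9.29% of the library's IL11. The last cells taken had 65.2, 66.2 and 66.8 UPM and the first left out 64.9, 64.8 and 64.2, so the boundary marks no gap. Only 4 of the cells were chosen on 1 or 2 IL11 UMIs. When all cells were first thinned to 17000 UMIs, 131 were chosen and 93 of them were among the 138.

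Set beside the control library, the 4B4 library had more IL11. The level over all kept cells was 32.5 UPM (31.4 to 33.5) with 4B4 and 20.5 UPM (19.7 to 21.3) without, a ratio of 1.58 (1.51 to 1.67). A single cell held 9.29% of the 4B4 library's IL11, and a stricter cell filter brought the levels of the libraries closer. The interval of the ratio covers neither. A cell's IL11 reached that of the lowest IL11-rich 4B4 cell in 212 control cells, 6.23% (5.44 to 7.097), against 9.96% (8.44 to 11.7) in the 4B4 library. At least 1 IL11 UMI was seen in 46.6% of 4B4 and 27.2% of control cells. The 4B4 cells were deeper, and after thinning to 17000 UMIs the shares were 21.9% (19.7 to 24.2) and 17.1% (15.8 to 18.5). No cell type that lacks IL11 was present to measure free RNA.

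**Figure D1:**
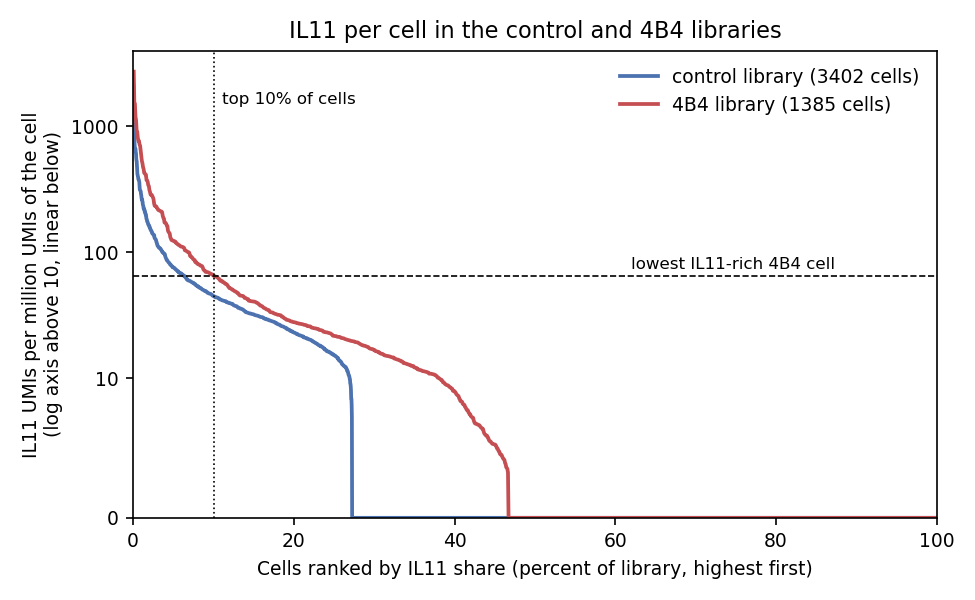
IL11 UMIs per 1000000 UMIs of a cell (y axis, log above 10 and linear below) for the kept cells of each library ranked from the highest (x axis, percent of cells). The 4B4 curve lies above the control curve over the ranked cells with IL11, and falls to 0 at 46.6% of cells against 27.2%.

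Across all genes, the IL11-rich cells had more RNA of cell division genes, of a set of TGF-beta response and cytoskeletal genes led by PMEPA1, and of TIMP1, ODC1 and TNFRSF12A, and less of RANBP3L, CHI3L1, SLC5A3 and IFITM1. Of 6879 genes at 20 UPM or more in either set, 298 were called higher (4.33%) and 88 lower (1.28%). The median log2 ratio over these genes was 0.08. Scaling by trimmed means (TMM) lowered every log2 ratio by 0.11 and gave 212 higher and 139 lower. Letting each cell weigh the same gave 233 and 131.

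**Figure D2:**
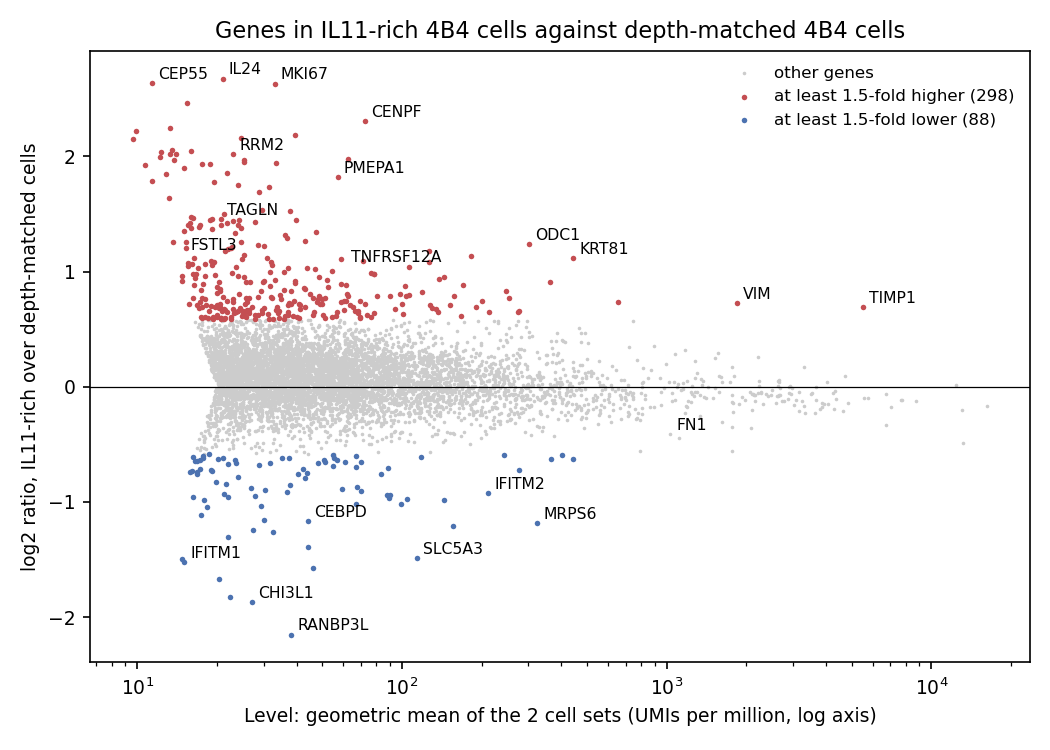
Each point is 1 of the genes at 20 UPM or more, by its level (x axis, geometric mean of both cell sets, log) and its log2 ratio in IL11-rich over depth-matched 4B4 cells (y axis). The 298 genes called higher are red and the 88 called lower blue, with PMEPA1, ODC1, TIMP1 and VIM above and RANBP3L, CHI3L1 and SLC5A3 below.

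Cell division genes made up most of the largest ratios. Among the 15 largest were CEP55 and PRC1 (cytokinesis), ASPM, TPX2, AURKA and PLK1 (spindle), CENPF (kinetochore), and RRM2 (nucleotide supply for DNA synthesis). CENPF was at 161 UPM against 32.6 (log2 ratio 2.31) and MKI67, a marker of cycling cells, at 82.1 against 13.3 (2.63). Of 53 measured genes of the G2 and mitosis list 43 were higher and none lower, and of 40 S phase genes 24 were higher and none lower. Lists were counted from 5 UPM, where 6.47% of all 11376 genes were called higher and 1.98% lower. Most cells of either set had no UMI of such a gene: MKI67 was at 0 in 102 of the 138 IL11-rich and 355 of the 414 matched cells. A list called with these genes cannot serve as independent evidence of phase, since phase was assigned from the same S and G2/M lists.

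Assigned phase differed in the same way at equal depth. After thinning, 17.3% (11.3 to 24.8) of 133 IL11-rich cells were called G2/M against 5.76% (3.69 to 8.52) of matched cells. S phase took 9.77% (5.31 to 16.1) against 6.52% (4.30 to 9.40), and G1 72.9% against 87.7%. Read the other way, IL11-rich cells made up 8.46% of G1 cells, 16.7% of S cells and 26.4% (17.5 to 37.0) of G2/M cells. The median IL11 level of an IL11-rich cell was 122 UPM in G1, 132 in S and 119 in G2/M.

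The remaining comparison therefore stands beside a repeat in which matched cells were taken from the phase of each IL11-rich cell, nearest in depth. A second repeat used G1 cells alone. Phases in both repeats came from cells that were not thinned, with 103 IL11-rich cells in G1. In G2/M, 3 matched cells for each of 23 IL11-rich cells were drawn from 79 others, so depth was matched only loosely there. Within phase 178 genes were higher (2.59%) and 77 lower (1.12%), of which 168 and 73 were among the 298 and 88. In G1 cells the counts were 186 (2.78%) and 90 (1.35%). The G2 and mitosis list then had 14 of 53 genes higher within phase and 0 of 23 measured in G1 cells, where 1 was lower. The S phase list had 1 of 40 and 3 of 23 higher. At the lists' minimum of 5 UPM, 4.02% of all genes were higher within phase and 1.59% lower. In G1 cells these shares were 4.48% and 2.14%. In G1 cells alone MKI67 was at a log2 ratio of −0.14 and TOP2A at −0.70. Phase was assigned from these same lists, so holding phase fixed removes much of their difference by construction. The fall of these genes in the repeats is therefore no separate result.

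PMEPA1, a membrane protein that TGF-beta induces and that restrains SMAD signalling, was the response gene that stood furthest out. In IL11-rich cells its lowest, median and highest levels were 0, 52.3 and 955 UPM, and in matched cells 0, 4.31 and 614. It was at 0 in 33 of 138 and 203 of 414 cells, so the sets overlapped widely. The summed level was 107 UPM (101 to 113) against 30.4 (28.6 to 32.3), a log2 ratio of 1.82 (1.70 to 1.94). The ratio was 1.75 within phase and 1.67 in G1 cells. By the phase assigned after thinning, PMEPA1 was at 108 UPM (100.4 to 115) in IL11-rich G1 cells against 23.8 (22.8 to 24.8) in all other G1 cells. It was at 134 against 32.2 in G2/M, and at 48.6 (37.2 to 62.4) against 29.4 (24.6 to 34.8) in the 13 and 65 cells of S phase.

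The TGF-beta response list held 52 genes, of which 45 reached 5 UPM. In the IL11-rich cells 12 of these 45 were higher (26.7%) and none lower. The shares over all genes at that level, 6.47% and 1.98%, are the background for the list counts of this comparison. Seen from the other side, the 12 were 1.63% of the 736 genes called higher. The list's median log2 ratio was 0.28, beside 0.08 over all genes. Within phase 11 of 45 were higher and none lower (all genes 4.02% and 1.59%), with a median of 0.37. In G1 cells 13 of 44 were higher and 1 lower (all genes 4.48% and 2.14%). TMM scaling gave 10 higher, with WNT5A and CCN2 lower, and weighting each cell the same gave 10 higher and 4 lower.

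The members called higher coded largely for actin-linked, matrix and secreted proteins. TAGLN, an actin-binding protein of contractile cells, was at 34.3 UPM against 12.5 (log2 ratio 1.46, 1.26 to 1.66), and TPM1, a tropomyosin, at 496 against 264 (0.91, 0.86 to 0.96). TPM1 had a median cell level of 387 UPM in IL11-rich and 161 in matched cells. FSTL3, a secreted inhibitor of activins, was at 24.0 against 9.40 UPM (1.35) and INHBA, the activin A subunit, at 25.6 against 15.6 (0.71). A single IL11-rich cell held 26.9% of the INHBA UMIs. COL5A1, a fibrillar collagen chain, was at 23.4 against 11.1 UPM (1.07), and TGFBI, a secreted matrix protein, at 80.3 against 43.2 (0.90). HBEGF, an EGF receptor ligand, was at 35.2 against 18.7 UPM (0.91). NOX4, a superoxide-producing oxidase, was at 64.0 against 38.9 (0.72), SPHK1, a sphingosine kinase, at 83.4 against 52.7 (0.66), RUNX1, a transcription factor, at 85.3 against 56.3 (0.60) and ANGPTL4 at 5.69 against 3.42 (0.73). Of the 12, PMEPA1, TAGLN, TPM1, FSTL3, COL5A1 and TGFBI (6 genes) were called under each of the 18 alternatives run, NOX4 and HBEGF under 17, INHBA and SPHK1 under 15, ANGPTL4 under 11 and RUNX1 under 9.

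Several of the best-known TGF-beta targets were not among them. SKIL, a SMAD corepressor, was at 272 UPM against 183 (0.57, 0.51 to 0.63) and SMAD7, the inhibitory SMAD, at 84.4 against 68.6 (0.30), neither called. CCN2 was at 27.7 against 40.5 UPM (−0.55) and FN1, fibronectin, at 893 against 1190 (−0.41), neither called. ID1 and ID3, targets of the BMP branch, were at log2 ratios of 0.04 each.

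Taken per cell, the summed share of the response list overlapped between the sets. At equal depth its lowest, median and highest values were 1706, 5824 and 13880 UPM in 133 IL11-rich cells and 1176, 4882 and 14530 in 1178 others. Of the IL11-rich cells 17.3% (11.3 to 24.8) were in the library's top 10% by this sum, against 9.17% (7.58 to 10.96) of the others. With each gene scaled to the same weight, the shares were 29.3% (21.8 to 37.8) and 7.81% (6.34 to 9.49). Across 1311 cells Spearman's rho between IL11 and the sum was 0.13, and 0.25 with equal weights, over cells that share a library and many zeros. By single genes, 28.6% (21.1 to 37.0) of IL11-rich cells were in the top 10% for PMEPA1 and 21.1% for NOX4, but 7.52% for CCN2.

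Of 23 measured genes for the pathway's ligands, latency proteins and receptors, 3 were higher and 1 lower, beside 6.47% and 1.98% of all genes, with a median log2 ratio of −0.03. The higher ones were FSTL3 and INHBA, given above, and LTBP1, which holds latent TGF-beta in the matrix, at 71.5 against 37.6 UPM (0.93). The ligand TGFB1 was at 177 against 193 UPM (−0.13) and TGFB2 at 14.4 against 16.4 (−0.19), neither called. TGFB3 was lower, at 4.31 against 7.59 UPM (−0.82), but called in only 13 of the 18 alternatives and not within phase. LTBP1 was called in all 18.

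**Figure D3:**
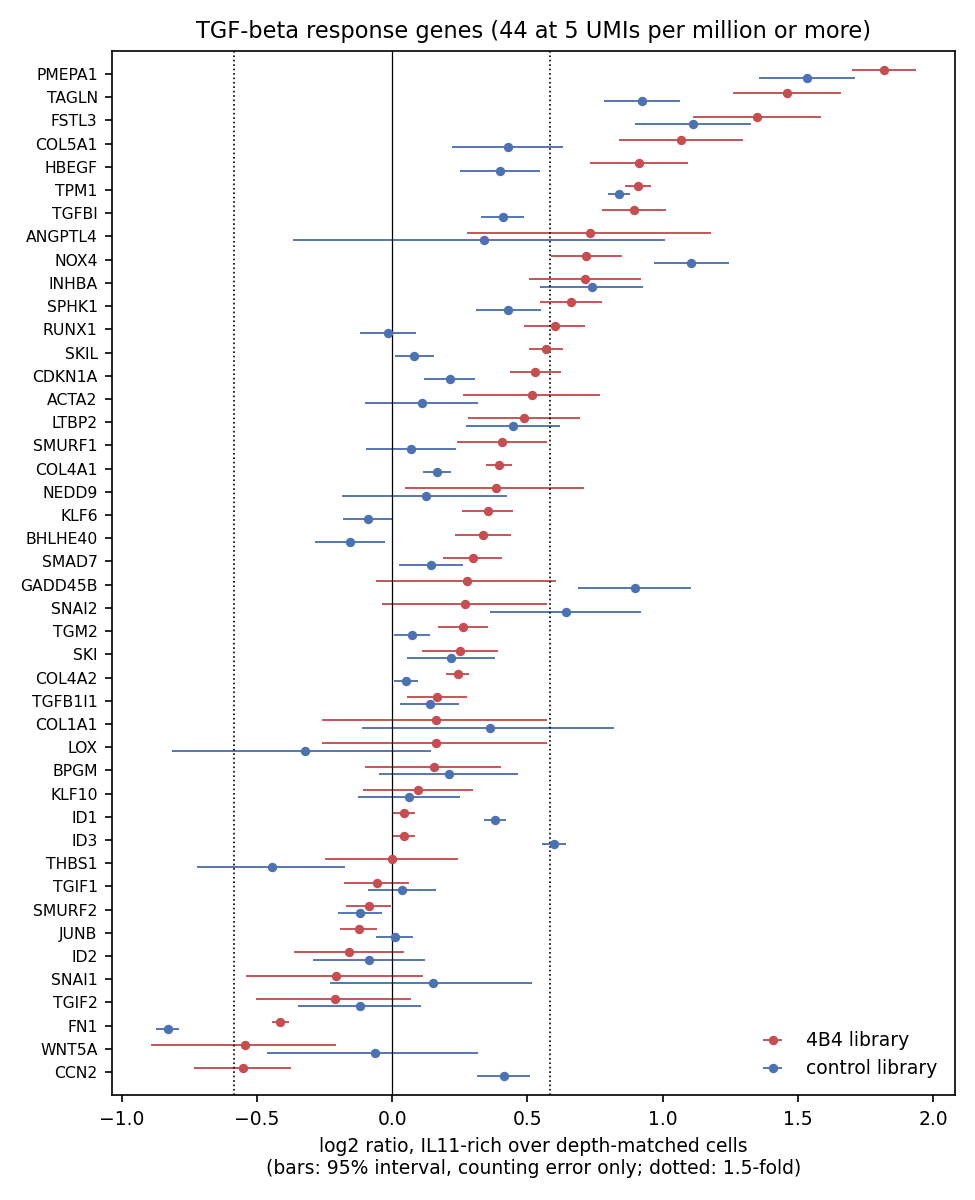
log2 ratios of 44 measured TGF-beta response genes in IL11-rich over depth-matched cells (x axis, with 95% counting intervals), in the 4B4 library (red) and by the same rule in the control library (blue). PMEPA1, TAGLN, FSTL3, TPM1, NOX4 and INHBA lie beyond 1.5-fold (dotted) in both, and SKIL and SMAD7 in neither.

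The control library, which the rule did not use, gave a like order of genes. Its top 10% by IL11 were 340 cells with a median of 3 IL11 UMIs, and 143 of them were chosen on 1 or 2. Against their own 1020 matched cells, 149 of 6862 genes were higher (2.17%) and 71 lower (1.03%). Of the 298 genes higher under 4B4, 270 reached 20 UPM there and 264 had a ratio above 1, beside 54.6% of all genes. Of the 88 lower genes 74 were measured and 71 had a ratio below 1, beside 45.4%. Called in both were 80 higher genes, 26.8% of the 4B4 and 53.7% of the control calls, and 43 lower genes, 48.9% and 60.6%. Within phase the shared calls were 27 higher genes, 15.2% of the 4B4 and 64.3% of the control calls, and 28 lower genes, 36.4% and 54.9%. Across 6533 genes Spearman's rho between the ratios of both libraries was 0.58, and 0.41 within phase; genes are not independent replicates.

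TGF-beta response genes were called there too. Of 44 measured, 11 were higher and 1, FN1, was lower, beside 2.66% and 1.86% of all genes, and the list's median was 0.19. The 6 higher in both libraries were PMEPA1, TAGLN, FSTL3, TPM1, NOX4 and INHBA, 50.0% of the 4B4 and 54.5% of the control calls, and the same 6 were shared within phase, where 9 were called in the control library (all genes 0.966% higher). PMEPA1 was at 37.7 against 13.0 UPM in the control library, a log2 ratio of 1.53 (1.36 to 1.71). COL5A1 (0.43), TGFBI (0.41), HBEGF (0.40) and RUNX1 (−0.01) were not called there. Control IL11-rich cells were also more often G2/M, 31.2% (26.1 to 36.6) against 21.8% (19.2 to 24.5), and their median MT- share was 8.07% against 9.16%.

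The IL6 family's own members were sparse. CLCF1, a cytokine of the family, was at 6.21 against 3.97 UPM (0.65) and LIF, another gp130 ligand, at 9.31 against 6.07 (0.62). Both were called higher, but neither under TMM scaling nor within phase. Across the 18 alternatives CLCF1 was called in 12 and LIF in 8. In the control library CLCF1 was called (0.69) and LIF, at 0.56, was not. IL6 was at 3.36 against 4.11 UPM, below the minimum.

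On the receiving side none of 10 measured receptor and kinase genes was called. IL11RA was at 17.3 UPM against 21.6 (−0.32, −0.55 to −0.09), IL6ST at 69.8 against 71.8 (−0.04) and STAT3 at 48.4 against 55.2 (−0.19). Of 14 STAT3 targets 2 were called higher and 1 lower (median −0.07). SOCS3, the feedback inhibitor of gp130 signalling, was at 10.3 against 10.8 UPM (−0.08, −0.39 to 0.22). CEBPD, a transcription factor that STAT3 induces, was lower, at 29.4 against 66.1 UPM (−1.17), with median cell levels of 10.4 and 32.8 UPM, and was called lower in the control library as well (−0.62). TIMP1, an inhibitor of matrix metalloproteinases, was higher, at 7004 against 4329 UPM (0.69), with median cell levels of 5244 and 2525 UPM. In the control library TIMP1 was at 0.26 and not called. MCL1, a survival factor, was at 85.6 against 56.2 UPM (0.61), called in 9 of the 18 alternatives, while TIMP1 and CEBPD were called in all 18.

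The AP-1 list also held genes of the ATF, BATF and MAF families. Of its 12 measured genes 3 were higher and none lower, with a list median of 0.08. Only FOSL1 of these 3 is a FOS or JUN family gene. FOSL1 (FRA1) was at 64.0 UPM against 37.0 (0.79), MAFK at 13.7 against 5.95 (1.20) and BATF3 at 6.29 against 3.19 (0.98). JUNB was at 194 against 212 UPM (−0.12) and JUND at 287 against 284 (0.01). FOSL1 and MAFK were called in all 18 alternatives and BATF3 in 15. None of the 12 was called in the control library, where FOSL1 was at 0.53. TGAGTCA was in 10 of 228 promoter windows of genes called higher within phase (4.39%) and in 2 of 95 of genes called lower (2.11%), beside 4.20% of all windows.

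The genes whose level followed IL11 most closely across the 1311 thinned 4B4 cells had weak correlations, given only to rank them. Spearman's rho was 0.27 for ODC1, 0.25 for HMGA1, VIM and TNFRSF12A, and 0.20 for PMEPA1, the eighth of 6879 genes. ODC1, the first enzyme of polyamine synthesis, had lowest, median and highest levels of 0, 345 and 3344 UPM in IL11-rich cells and 0, 139 and 2256 in matched cells, and summed to 462 against 196 UPM (1.24). TNFRSF12A, the TWEAK receptor, was at 271 against 123 UPM (1.14), and KRT81, a hair keratin, at 652 against 301 (1.12). STC1, a secreted glycoprotein hormone, was at 192 against 99.9 UPM (0.94), and VIM, the mesenchymal intermediate filament, at 2363 against 1430 (0.72). HMGA1, a chromatin protein, was at 558 against 393 UPM (0.51), not called. ODC1, TNFRSF12A, KRT81 and STC1 were also called in the control library.

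Levels along bins of IL11 are a description. The bins were cut on the IL11 share that chose the cells, and the genes were picked from the same cells, so a trend was largely set beforehand. In cells without IL11 (bin 1), the other cells with any, split at their median (bins 2 and 3), and the IL11-rich cells split likewise (bins 4 and 5), ODC1 was at 157, 172, 248, 348 and 595 UPM. PMEPA1 was at 23.6, 20.8, 44.0, 93.4 and 129 UPM, level between the first bins and higher from the third on. RANBP3L went from 114 to 82.7, 48.2, 21.6 and 3.62 UPM. MKI67 was at 12.7, 15.1, 17.8, 68.3 and 51.6 UPM, so its step lay at the boundary of the IL11-rich cells and not within them. Bins 1 and 2 differed in depth before thinning, since a deep cell is more likely to show a UMI.

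**Figure D4:**
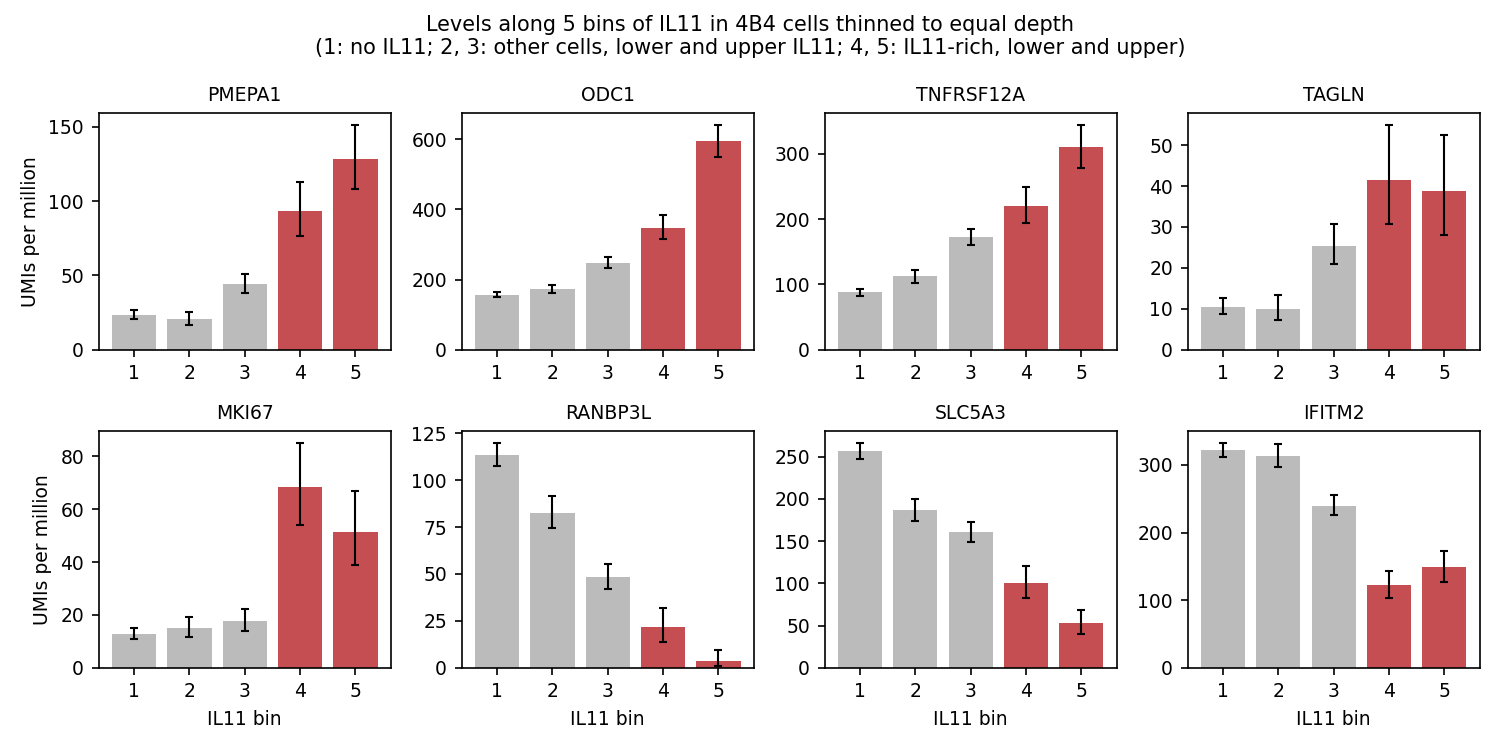
Levels in UPM (y axis, from 0) of 8 genes in 5 bins of IL11 (x axis) in 4B4 cells thinned to 17000 UMIs, with 95% counting intervals; the IL11-rich cells are the red bins 4 and 5. ODC1 and TNFRSF12A step up and SLC5A3 and RANBP3L step down from bin to bin, while MKI67 is high only in bins 4 and 5. Bins and genes were chosen from these same cells, so the trends are a description.

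Among genes at 20 UPM or more in either set, RANBP3L had the lowest ratio, with 18.1 UPM against 80.4 (−2.15, −2.36 to −1.95). It was at 0 in 109 of 138 IL11-rich and 160 of 414 matched cells, and the control ratio was −1.67. CHI3L1, a secreted chitinase-like protein, was at 14.1 against 51.6 UPM (−1.87). HAS2, a hyaluronan synthase, was at 8.79 against 24.8 UPM (−1.50), and APOC1, an apolipoprotein, at 27.3 against 71.8 (−1.39). SLC5A3, the sodium-coupled myo-inositol transporter, was at 68.0 against 191 UPM (−1.49), and MRPS6, a mitochondrial ribosomal protein whose gene overlaps SLC5A3, at 216 against 489 (−1.18). The 15 lowest ratios named by the rule were all called lower in the control library and within phase too. Of 11 interferon response genes 3 were lower and none higher: IFITM1 (−1.52), IFITM2 (−0.92) and IFITM3 (−0.62), which are neighbouring, similar genes, so their reads may be split. IFITM1 and IFITM2 were called in all 18 alternatives and IFITM3 in 16.

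Some of the largest ratios rested on few cells. IL24, a cytokine of the IL10 family, had the largest among genes at 20 UPM or more, at 53.1 UPM against 8.31 (2.68), but was at 0 in 121 of the 138 cells, and a single cell held 36.9% of its UMIs. At equal depth IL24 was seen in 8.27% (4.20 to 14.3) of IL11-rich and 5.86% (4.59 to 7.35) of other cells. LINC00520 was at 50.0 against 12.8 UPM (1.97), with 54.0% in 1 cell, and AREG, an EGF receptor ligand, at 17.3 against 4.43 (1.97), with 44.8% in 1 cell. Without the 1% of cells that held most of each gene, the log2 ratio of LINC00520 was 0.94, that of AREG 1.25 and that of IL24 2.94. All 3 were called higher in the control library, IL24 at 1.63.

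Integrin and adhesion genes bear on the treatment. ITGB1, the target of 4B4, was at 1016 UPM against 793 (0.36, not called), with median cell levels of 1003 and 817 UPM. Among 12 integrin subunits, the collagen-binding ITGA2 was higher, at 242 against 150 UPM (0.69), and the collagen-binding ITGA1 (33.1 against 54.3, −0.71) and ITGA10 (21.0 against 50.3, −1.26) were lower. In the control library ITGA1 (−0.96) and ITGA10 (−0.82) were also called lower and ITGA2 (0.28) was not called. ITGA2 and ITGA10 were called in all 18 alternatives and ITGA1 in 17, and TMM scaling gave 4 lower subunits. Of 23 proteases and inhibitors 1 was lower and 3 were higher: the plasminogen activators PLAU (191 against 84.0 UPM, 1.18) and PLAT (83.8 against 45.3, 0.89), and TIMP1. All 3 were called in each of the 18 alternatives. PLAU was at 0.44 in the control library, not called. SERPINB2 was lower, at 3.02 against 5.95 UPM (−0.98), in 12 of the 18 alternatives.

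Of 20 measured YAP and TEAD target genes, read-outs of adhesion and tension, 1 was higher and 3 were lower, beside 6.47% and 1.98% of all genes, and the list's median was 0.03. DOCK5 was higher (0.72), and ANKRD1 (−0.89), RBMS3 (−0.76) and CCN1 (−0.69) were lower. CCN1 was at 43.3 UPM against 69.7, but its log2 ratio was 0.11 with the top 20% of cells and 0.070 with cells chosen after thinning. It was called lower in 13 of the 18 alternatives, ANKRD1 and DOCK5 in 15 and RBMS3 in 16. In the control library CCN1 was at 0.38 and ANKRD1 at 0.17, neither called. There 3 of 22 targets were higher and none lower, beside 2.66% and 1.86% of all genes. The difference between the libraries was not tested. Of 20 SRF and MRTF targets 3 were higher and none lower: TAGLN, TPM1 and FHL2 (0.70), with a median of 0.21.

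**Figure D5:**
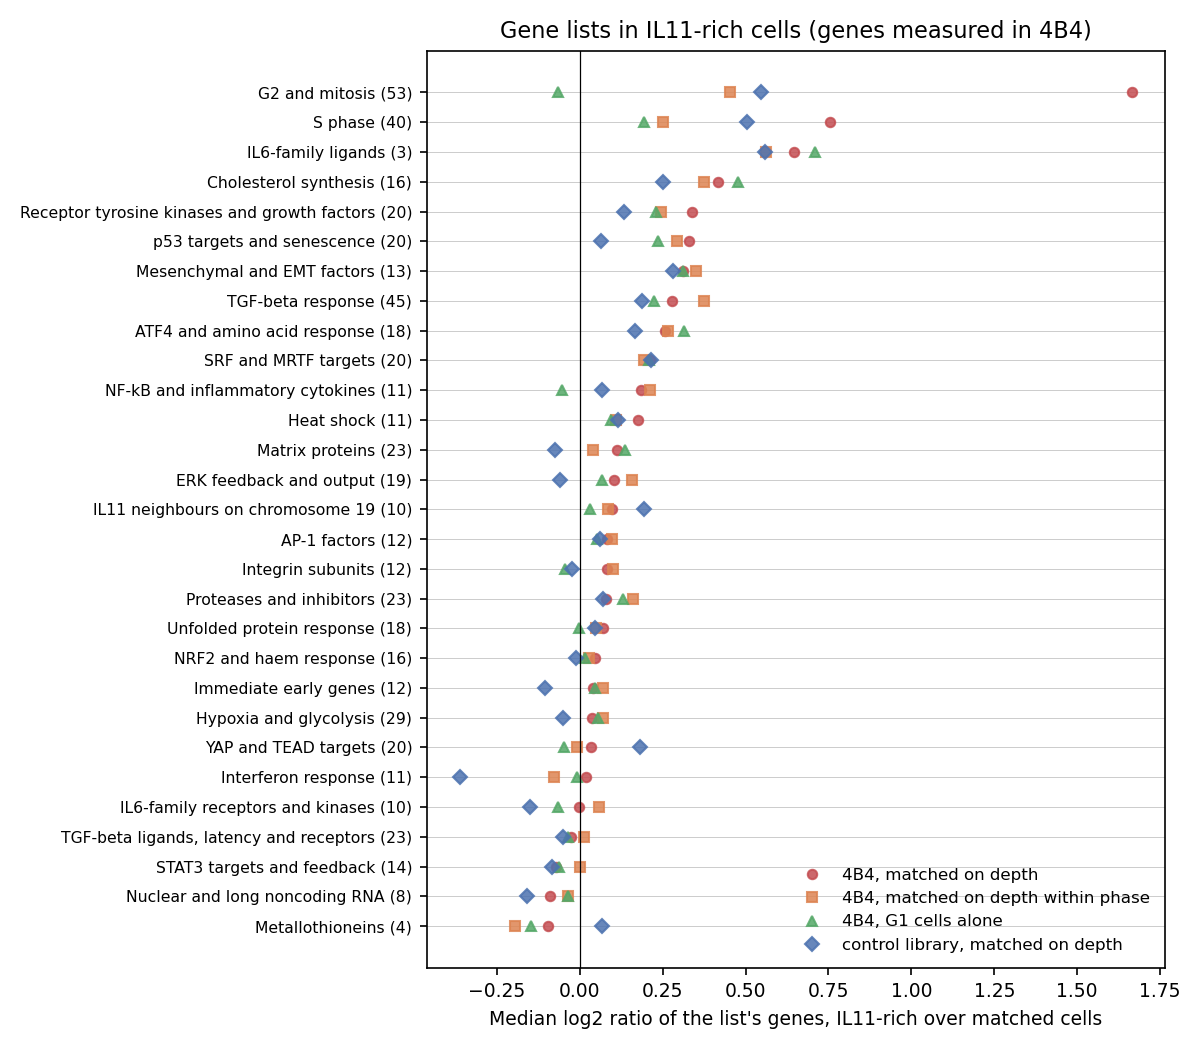
Median log2 ratio (x axis) of each gene list with at least 3 measured genes (y axis, number measured in brackets), for 4B4 cells matched on depth (circles), matched within phase (squares), in G1 alone (triangles), and for the control library (diamonds). The G2 and mitosis median is 1.66 on depth alone, 0.45 within phase and −0.06 in G1, while the TGF-beta response median stays between 0.19 and 0.37. Phase was assigned from the S and G2/M lists, so the fall of the G2 and mitosis median is partly set by that choice.

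The IL11-rich cells did not form a cluster of their own. Clustering of thinned 4B4 cells without IL11 gave 6 clusters, and IL11-rich cells were present in all of them. They made up 24.6% (17.5 to 32.9) of cluster 2, led by POLQ, ASPM, CEP55 and MKI67, and 2.73% (0.893 to 6.26) of cluster 4, led by RANBP3L, ABCA1 and HAS2. Cluster 1, led by S100A9 and APOE, had 5.02%, and the other 3 between 10.96% and 12.95%. Of the IL11-rich cells 24.1% each were in clusters 2, 3 and 5. These leading genes defined the clusters and are not results.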

How the data were processed

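Single-cell RNA was measured in 2 libraries of HT1080 spheroids, grouped by the treatment label. Each deposited file is a matrix of raw UMI counts by gene and barcode. Its header names Cell Ranger 7.1.0 as the authors' counting software, and the submitters' processing notes name build GRCh38 and Seurat 5.0.1, the latter without a role. Annotation and read depth are not stated in the sources used. Gels were dissociated with enzymes before droplet capture, per the labels' protocols.

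The members, gene lists and tests were chosen with earlier results of these data known, so the lists are not independent evidence. Cells were kept at 1000 or more genes and at most 20% MT- UMIs. UMIs were summed over the IL11-rich cells and over 3 matched cells each, divided by the UMIs without IL11, and compared as ratios with Clopper-Pearson intervals of the binomial share (levels: exact Poisson, shares: Clopper-Pearson, all 95%, counting error only, as UMIs of 1 cell are not independent). Minimum levels were 20 UPM for all genes and 5 UPM for 32 lists. Genes to name were drawn from the 15 largest ratios each way that kept their sign under 18 alternatives, and from up to 4 genes per list. The 10 most like IL11 and a set of pathway genes were added, and not all of these are printed. Other genes are named where a list's calls are spelled out after their values were seen. Thinning drew 17000 UMIs per cell without replacement (shallower cells left out, 5 of the 138). Phases and clusters came from scanpy 1.11.5 (30 components, 15 neighbours, resolution 0.5). TMM factors came from edgeR 4.0.16 on the summed counts, with no test. Doublets were not removed: Scrublet marked too few cells to be of use. Ratios and matching were tested on simulated data. Spans are from GENCODE 29 and promoters from RefSeq, found for 120 of 160 named genes. Alternatives are given in the closing section. Some genes on the lists are not reported here.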

Additional observations from a re-analysis of the deposited data

Results flagged for a closer look

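SERPINB2, a plasminogen activator inhibitor, was called in opposite directions by the same comparison in the 2 libraries. In the 4B4 library it was at 3.02 UPM in IL11-rich cells against 5.95 in matched cells, a log2 ratio of −0.98, and 1 cell held 40.0% of the IL11-rich cells' UMIs. In the control library it was at 22.6 against 7.62 UPM, a log2 ratio of 1.57. The difference between the libraries was not tested. Of 280 genes called in both libraries at 5 UPM or more, 3 had opposite directions. The other two, chosen after their values were seen, were KCNIP4 (0.69 with 4B4, −0.63 in control) and LINC02334 (0.88 and −1.02).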

How the results depend on the processing

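Of the summary values under other settings, 66 stayed close to the reported value and 22 moved. The count of higher genes (298) became 179 with the top 20% of cells, 186 in G1 cells, 178 within phase and 114 at a minimum of 50 UPM. The count of lower genes (88) became 160 with the top 5%, 182 with thinned cells, 138 with cells chosen after thinning, 139 with TMM, 134 with totals without mitochondrial and ribosomal protein genes and 45 at 50 UPM. TGF-beta response genes called higher (12) became 19 with cells chosen after thinning. Those called lower (0) became 1 without the cell filter, 3 with the top 5%, 4 with each cell weighing the same, 2 with TMM, and 1 each in G1 cells, without the 1% of cells richest in each gene, and in cells with at least 3 IL11 UMIs. The share of IL11-rich cells in the top 10% by response score (17.3%) became 29.3% with each gene weighing the same. The control count of higher genes (149) became 42 within phase. IL11 levels with a stricter cell filter were 35.1 UPM (4B4) and 26.1 (control), closer together than the 32.5 and 20.5 UPM of all kept cells. Among values of single genes and lists, 3441 stayed close, 1100 moved and 13 changed sign: CCN1 0.11 (top 20%) and 0.070 (chosen after thinning), BTG2 −0.31 (top 5%), NUPR1 0.065 (chosen after thinning), SAA1 −0.66 (no matching), −0.76 (depth deciles), −0.85 (thinned) and −1.37 (chosen after thinning), and, in G1 cells alone, LMNB1 −0.080, EXO1 −0.12, MKI67 −0.14, HJURP −0.74 and TOP2A −0.70. Where the cause is not the smaller or other set of cells or genes itself, the cause was not tested. The settings within phase, with each response gene weighing the same, with at least 3 IL11 UMIs, from 17000 UMIs and without the cell richest in IL11 were added after seeing the data. No paired analysis was possible because each group is 1 library. Depth limits the choice of cells: a cell of few UMIs can enter on 1 IL11 UMI, as 3 did.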

Other observations

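Of 16 measured genes of cholesterol synthesis and uptake, 6 were higher in the summed RNA of IL11-rich cells, none was lower and 10 were not called, with a median log2 ratio of 0.42. Over all genes at the same minimum of 5 UPM, 6.47% were higher and 1.98% lower, which is the background for each list here. Those higher included SQLE (0.94), INSIG1 (0.94), CYP51A1 (0.62) and DHCR7 (0.59). With each cell weighing the same 0 of the list were called, SQLE was called in 14 of the 18 alternatives, INSIG1 in 13, CYP51A1 in 9 and DHCR7 in 5, and a single cell held 26.3% of the SQLE UMIs. In the control library INSIG1 (0.75) was called, and SQLE, CYP51A1 and DHCR7 were not. Of 20 growth factor and receptor kinase genes 6 were higher: AREG, HBEGF, FGF2 (0.65), FGFR1 (0.67), VEGFC, a lymphatic growth factor (27.5 against 15.2 UPM, 0.85), and MET, the HGF receptor (41.4 against 21.9, 0.92). VEGFC (1.38), MET (0.59), AREG and FGF2 were also called in the control library. MET and AREG were called in all 18 alternatives, VEGFC and HBEGF in 17, FGFR1 in 11 and FGF2 in 8. With each cell weighing the same this list had 2 higher and 3 lower.

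IL1B, an inflammatory cytokine, was at 184 UPM against 86.4 (1.09) and in the control library at 0.80, called in both. IL1B was called in all 18 alternatives. In the same list IL32 (0.83, called in 13) and SAA1 (1.90, called in 10 and of opposite sign in 4) were higher, and NFKBIA (−0.69, 17), ICAM1 (−0.74, 16) and PTGS2 (−0.64, 9) were lower. Of 23 matrix genes 5 were higher, among them the hyaluronan-degrading CEMIP (105 against 48.9 UPM, 1.10), also called in the control library, and MGP (−2.18, called in 14 of 18) and HAS2 were lower. Of 16 antioxidant genes 3 were higher, led by the cystine transporter SLC7A11 (1.11) and the glutathione enzyme subunit GCLM (0.98), both called in the control library. HMOX1 was at 149 against 116 UPM (0.37, not called) and was called in the control library (0.92). Of 20 p53 and senescence genes 4 were higher, MDM2 (0.79, called in 14 of the 18), IGFBP7 (0.95, 18), LMNB1 (1.72, 17) and BTG2 (0.65, 7). LMNB1 was not called in G1 cells alone, and its control log2 ratio was 0.64, or 0.095 within phase. The count gives no direction of senescence. Of 13 mesenchymal factors 4 were higher, VIM and FOXC2 (0.78) in all 18 alternatives, CD44 (0.61) in 13 and CDH2 (0.68) in 12.

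Higher and lower genes of the other lists stand beside 6.47% and 1.98% of all genes. They numbered 3 and 1 of 12 immediate early genes, 4 and 1 of 19 ERK output genes and 3 and 1 of 18 ATF4 genes. Among 29 hypoxia and glycolysis genes they numbered 2 and 1. In a list of 8 nuclear and long noncoding RNA genes they numbered 1 and 3, and 1 of the lower genes was the protein-coding LRRTM4. None of 18 unfolded protein response genes, 11 heat shock genes and 4 metallothioneins was called in either direction. Of 10 measured neighbours of IL11 on chromosome 19, TMEM238 (0.90) and UBE2S (0.77), a ubiquitin-conjugating enzyme of mitosis, were higher, and UBE2S was at 0.35 within phase.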
